A study of Mus musculus with 6 samples.

Results

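The CRL4-DCAF2 ubiquitin ligase is described here through the transcripts of 9 genes, taken by symbol from the 22274 genes of the deposited count table: Dtl, Ddb1, Cul4a, Cul4b, Rbx1, Cand1, Cops5, Pcna and Kmt5a. All 9 were found, with Rbx1 written in capitals in the table, and all 9 passed the filter on low counts that left 14424 genes for testing. The libraries came from whole testes labelled day 9. In the 3 conditional knockout (cKO) libraries, floxed Dcaf2 (Dcaf2 fl/fl) had been crossed with Stra8-Cre, a Cre recombinase expressed from the Stra8 promoter in spermatogonia. The RNA of somatic cells is in the libraries too. The 3 control libraries are labelled only as controls, and whether they carry the floxed alleles or Cre is not stated in the labels. The labels number the libraries within each genotype without tying a number to an animal, and the p-values therefore reflect only how far these libraries differ, which may be technical.

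DCAF2 is the protein of Dtl, also called CDT2. It is the substrate receptor of a cullin-RING ligase in which CUL4A or CUL4B is the scaffold, DDB1 the adaptor that holds the receptor, and RBX1 the RING subunit that recruits the ubiquitin-conjugating enzyme. The ligase reads its substrates only when they sit on PCNA, the sliding clamp of DNA replication, which ties their destruction to S phase and to DNA repair. KMT5A, the methyltransferase that places a single methyl group on histone H4 lysine 20, is one such substrate. CAND1 exchanges receptors on cullins that carry no NEDD8, and COPS5 is the catalytic subunit of the COP9 signalosome, which removes NEDD8 from them. All of this acts on proteins, and transcript levels do not show how much ligase or substrate protein the testes held.

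Promoter sequence is shown for Dtl, Rbx1 and Pcna, because Dtl and Pcna are textbook S-phase genes and Dtl and Rbx1 were the members with a match to an E2F-type motif. The motif was searched as TTTGGCGC, TTTCGCGC, TTTCCCGC and TTTGCCGC on both strands of the 250 bases before each start site in RefSeq's promoter table (GRCm38.p6), which held 8 of the 9 genes. A match was present in 1.86% of all 32851 windows. Dtl held it 8 bases before its start site and Rbx1 held TTTCCCGC on the opposite strand. Capitals mark the match. Each sequence is 60 bases on the gene's own strand, at chr1:191575545-191575604 (minus strand) for Dtl, chr15:81466171-81466230 (plus strand) for Rbx1 and chr2:132253181-132253240 (minus strand) for Pcna.
Dtl: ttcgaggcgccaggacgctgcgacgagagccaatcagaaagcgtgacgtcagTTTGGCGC
Rbx1: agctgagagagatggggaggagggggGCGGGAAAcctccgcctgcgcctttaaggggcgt
Pcna: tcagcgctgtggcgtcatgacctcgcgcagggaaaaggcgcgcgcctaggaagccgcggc
The absence of a match in the Pcna window says only that these letters are not in it.

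None of the 9 transcripts passed the threshold between genotypes, an adjusted p of 0.05 with edgeR's quasi-likelihood test. Across all tested genes 25.0% passed, with 11.1% higher and 13.9% lower in cKO. At an unadjusted p under 0.05 there was 1 member, Pcna, against 39.1% of tested genes. DESeq2 and limma-voom also called 0 members. Log2 fold changes ran from -0.31 for Dtl to 0.14 for Kmt5a, with a median of -0.09 where the median of all tested genes was 0.03. For 8 of the 9 genes the 95% interval of the difference lay within 1.5-fold in either direction, and Dtl was the exception. Changes in some other transcripts of these testes were far larger. An example is a germ-cell list, which like all lists here was chosen with earlier results of these data known. All 20 of its tested genes were lower in cKO, at a median of -1.50 on the log2 scale, and their number is not a separate test. Their summed levels were 612 to 752 CPM (the count scaled to the size of its library) in cKO and 1595 to 2120.2 CPM in controls. Fewer germ cells and less RNA per germ cell cannot be told apart in whole testes.

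**Figure D1:**
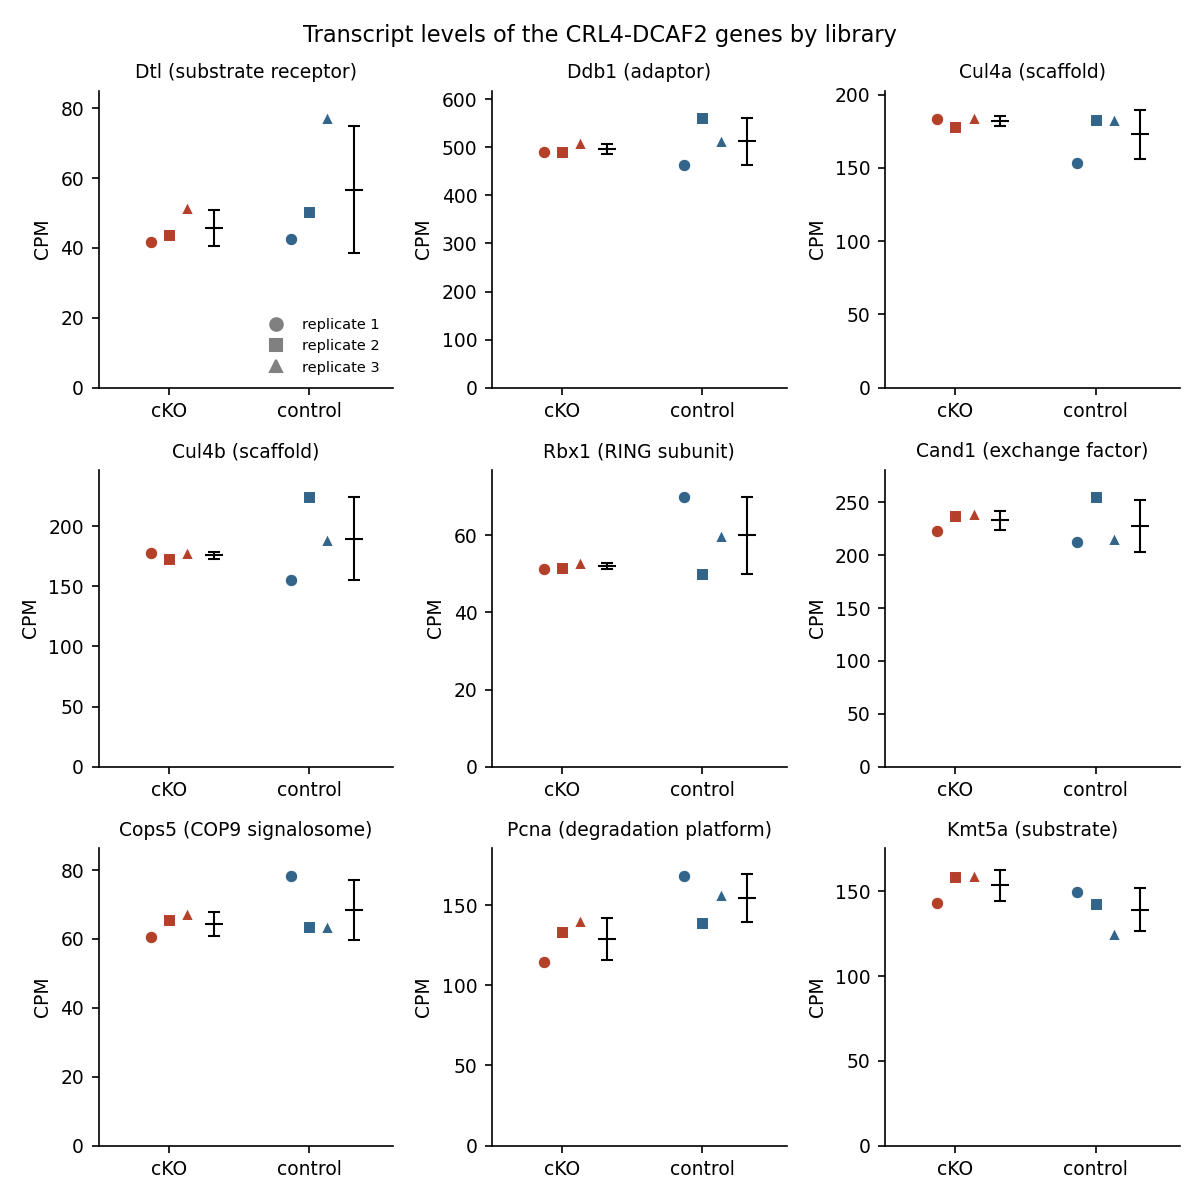
Level of each gene in CPM in the 3 cKO and 3 control libraries; each point is a library, with its replicate number shown by shape, and the bar gives the mean with 1 SD. The groups overlap in all 9 panels, and for Dtl the highest point is control replicate 3 at 77.4 CPM.

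Depth and cell type markers are given here beside these values. Totals ran from 15407007 to 17564942 counts in cKO libraries and from 16097362 to 18372964 in controls, and the 9 genes had 641 to 10079 counts per library. The summed Sertoli cell markers were 4916 to 5628 CPM in cKO and 3613 to 4959 CPM in controls, with 6 of 10 genes higher. Leydig cell markers summed to 1282 to 1305 CPM against 642 to 1176 CPM (2 of 8 higher), and interstitial stroma markers to 3591 to 3682 CPM against 2363 to 2849.7 CPM (3 of 6 higher). Of the other somatic lists, 3 of 6 endothelial, 2 of 6 macrophage, 0 of 6 myoid and 0 of 5 erythroid genes were higher. Among germ cells, 9 of 9 tested genes of differentiating spermatogonia and meiosis were lower and 0 higher, and 3 of 10 undifferentiated spermatogonia genes were lower and 1 higher. Ddx4, an RNA helicase gene of the germ line, was at -1.31 and the receptor gene Kit at -1.38 on the log2 scale (edgeR adjusted p = 0.000602 and 0.00444), and Sox9 of Sertoli cells at 0.44 (adjusted p = 0.028), a call lost without any 1 cKO replicate or control replicate 3 (highest adjusted p = 0.106). Spermatid markers were absent or nearly so, with Prm2, Tnp2 and Acrv1 at 0 in every library. The part of these cell types in the values of the 9 genes was not tested.

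Dtl, the targeted gene, had 41.7, 43.8 and 51.5 CPM in the cKO libraries and 42.6, 50.3 and 77.4 CPM in the controls. The groups overlapped, and control replicate 3 stood above the other 5 libraries, all between 41.7 and 51.5 CPM. The means were 45.7 ± 5.15 CPM in cKO and 56.7 ± 18.3 CPM in controls (SD, n = 3 each), 19.5% lower in cKO with a 95% interval from 41.3% lower to 10.5% higher (edgeR log2 fold change -0.31, SE 0.20, adjusted p = 0.281). Left-out libraries moved this gene more than any other member: the log2 fold change was -0.51 without control replicate 1 (edgeR adjusted p = 0.0321) and -0.02 without control replicate 3 (adjusted p = 0.923). Counts over the whole gene would include any transcripts that lack the deleted part, so they check the knockout only loosely. The implied transcript length of a gene is its count divided by its FPKM (fragments per kilobase, scaled to library depth) and by the library total. For Dtl it was 4215 to 4219 bases in all 6 libraries. It does not show whether a part of the gene was missing from its transcripts.

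The scaffold and adaptor genes did not pass. Ddb1 had 491, 490.4 and 509 CPM in cKO libraries and 463, 562 and 513 CPM in controls, and the cKO values lay inside the control range (edgeR log2 fold change -0.05, SE 0.10, adjusted p = 0.765). Cul4a had 184, 178 and 184 CPM in cKO and 153, 183 and 183 CPM in controls, with control replicate 1 below the rest (0.07, SE 0.10, edgeR adjusted p = 0.614). Its X-linked paralogue Cul4b had 177, 173 and 178 CPM in cKO and 156, 225 and 189 CPM in controls (-0.11, SE 0.13, edgeR adjusted p = 0.571). Here the 3 cKO libraries agreed closely while the controls spanned a wide range. Without control replicate 1 Cul4b was at -0.26 and passed (edgeR adjusted p = 0.0402), and without control replicate 2 it was at 0.02 (adjusted p = 0.924).

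Rbx1, the RING subunit gene, had 51.4, 51.6 and 52.8 CPM in cKO and 70.1, 49.95 and 59.9 CPM in controls. The lowest value was in control replicate 2, so the groups overlapped, although the other control libraries were above all cKO libraries. Its log2 fold change was -0.21 (SE 0.12, edgeR adjusted p = 0.245), and -0.33 without control replicate 2, where it passed (adjusted p = 0.0283). The regulators of the cycle of cullin neddylation moved less in the main analysis. Cand1 had 223, 237 and 239 CPM in cKO and 212, 255 and 215 CPM in controls (0.03, SE 0.10, edgeR adjusted p = 0.829). With a trend on transcript length removed, Cand1 was at -0.26 and did not pass (edgeR adjusted p = 0.0632). Cops5 had 60.5, 65.6 and 67.2 CPM in cKO and 78.4, 63.4 and 63.3 CPM in controls, where only control replicate 1 stood apart (-0.09, SE 0.11, edgeR adjusted p = 0.605). Within groups, 8 of the 9 genes varied less among cKO than among control libraries (SD of log2 CPM), as did 73.4% of all tested genes.

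Pcna, the clamp gene, had 114, 133 and 139.8 CPM in cKO and 168, 139 and 156 CPM in controls. The ranges touched only between cKO replicate 3 and control replicate 2, and the other cKO libraries were below every control. The mean was 129 ± 13.2 CPM in cKO and 154 ± 14.8 CPM in controls (SD, n = 3 each), 16.5% lower in cKO with a 95% interval of 0.31% to 30.0% lower. Pcna did not pass after adjustment over all genes (edgeR log2 fold change -0.26, SE 0.11, p = 0.0468, adjusted p = 0.122), and an exact two-sided permutation test of log2 CPM gave p = 0.20, where 3 against 3 libraries allow no less than 0.10. Without control replicate 2 it was at -0.34 (edgeR adjusted p = 0.0397). Kmt5a, the substrate gene, had 143, 158 and 159 CPM in cKO and 149.8, 142 and 125 CPM in controls, with cKO replicate 1 inside the control range (log2 fold change 0.14, SE 0.10, edgeR adjusted p = 0.326; change of 10.4% with an interval from -5.81% to 29.5%).

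**Figure D2:**
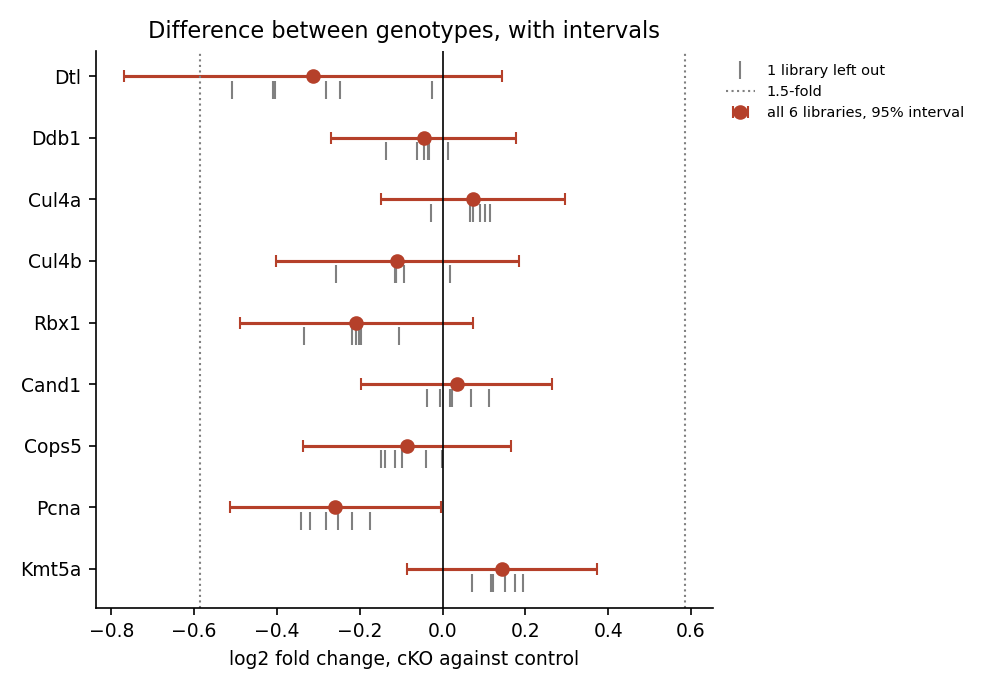
Log2 fold change of each gene, cKO against control, with its 95% interval (points and bars) and the values with 1 library left out (grey ticks); dotted lines mark 1.5-fold. The Dtl interval is the widest, from -0.77 to 0.14, and the Pcna interval ends just below 0.

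Ratios of transcripts within a library need no scaling between libraries, and 3 were computed. The count of Kmt5a was 1.25, 1.19 and 1.14 times that of Pcna in cKO and 0.889, 1.02 and 0.802 times in controls. Every cKO library was above every control, with a mean log2 difference of 0.41 (exact two-sided permutation p = 0.10, the smallest that 3 against 3 allow). This ratio joins the log2 fold changes of Kmt5a (0.14) and Pcna (-0.26) given above and is not separate from them. The count of Cul4b was 0.967, 0.969 and 0.963 times that of Cul4a in cKO and 1.01, 1.23 and 1.03 times in controls, again without overlap, by -0.17 on the log2 scale (exact permutation p = 0.10), and by -0.084 without control replicate 2. The ratio of Dtl to Pcna was 0.365, 0.329 and 0.368 in cKO and 0.253, 0.362 and 0.496 in controls. The cKO libraries lay within the control range, and the mean log2 difference was -0.01 (exact permutation p = 1). No ratio can reach 0.05 with an exact permutation test on this number of libraries. How often ratios of other gene pairs separate the groups was not computed. By CPM, 0 of the 9 members had groups that did not overlap, against 44.6% of all tested genes, with 22.1% lower in cKO.

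**Figure D3:**
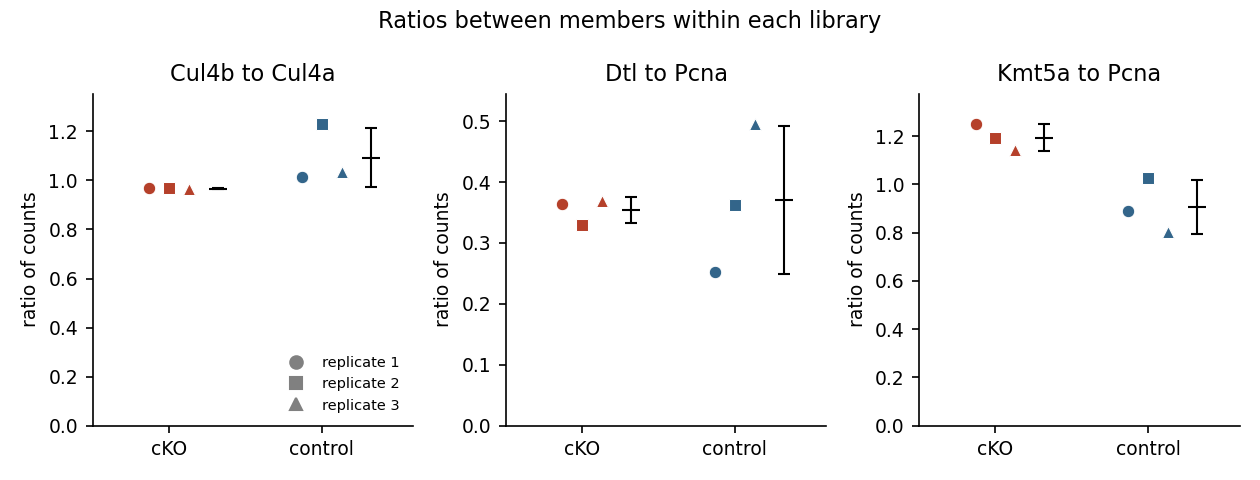
Ratio of the counts of 2 genes within each library for cKO (left) and control (right); points are libraries, shapes are replicate numbers and bars are the mean with 1 SD. The Kmt5a to Pcna and Cul4b to Cul4a ratios do not overlap between genotypes, and the Dtl to Pcna ratio does.

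Per length, Ddb1 was the most abundant of the 9 transcripts and Dtl the least, in both genotypes. The deposited FPKM averaged 113 ± 2.37 in cKO and 136 ± 2.80 in controls for Ddb1 (SD, n = 3 each). Pcna was at 83.0 ± 8.13 FPKM in cKO and 104 ± 11.5 FPKM in controls, and Kmt5a at 68.1 ± 5.11 FPKM in cKO and 61.3 ± 5.12 FPKM in controls. Cul4b, Cul4a, Cops5 and Rbx1 followed at 38.2 to 51.5 FPKM in cKO and 47.1 to 58.3 FPKM in controls. Their SDs were 0.923 to 2.02 FPKM in cKO and 3.98 to 10.1 FPKM in controls, and their order was not tested. Cand1 was next at 29.3 ± 0.965 FPKM in cKO and 29.9 ± 2.64 FPKM in controls. Dtl stood below at 10.6 ± 1.19 FPKM in cKO and 13.8 ± 4.56 FPKM in controls.

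Counts and FPKM gave different answers for Ddb1, and the groups of Pcna also overlapped by CPM but not by FPKM. Pcna had 74.1, 85.0 and 90.0 FPKM in cKO and 114, 91.8 and 106 FPKM in controls, and did not pass by FPKM (limma log2 fold change -0.32, adjusted p = 0.0753). The FPKM of Ddb1 was 114, 110.4 and 115 in cKO and 139, 134 and 134 in controls, so every cKO library was below every control, which held for 42.0% of tested genes in either direction. With limma on log2(FPKM + 1), an alternative chosen after seeing the data, Ddb1 was the 1 member that passed (log2 fold change -0.26 on that scale, adjusted p = 0.0472), where 21.1% of tested genes did. FPKM divides the count by transcript length and CPM does not. A count can itself depend on the length of the transcripts, so CPM is not free of length either. The implied length of Ddb1 was 4228, 4307 and 4333 bases in cKO and 3445, 4216 and 3949 bases in controls. Such a length averages over the transcripts of a gene, and GENCODE M21 lists 11 transcripts of Ddb1, from 416 to 4459 bases. Of genes with at least 20 counts in every library, 31.1% had a longest implied length over 1.1 times the shortest. Kmt5a, with 13 listed transcripts, also varied, from 2154 to 2253 bases in cKO and from 2146 to 2526 bases in controls. Pcna was at 1518 bases in all 6 libraries. Scaling differed too. FPKM went by library totals, and CPM also by TMM, a trimmed mean of ratios between libraries. The TMM factors were 0.970 to 0.984 in cKO and 1.003 to 1.034 in controls. The share of length and of scaling in each difference was not tested.

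**Figure D4:**
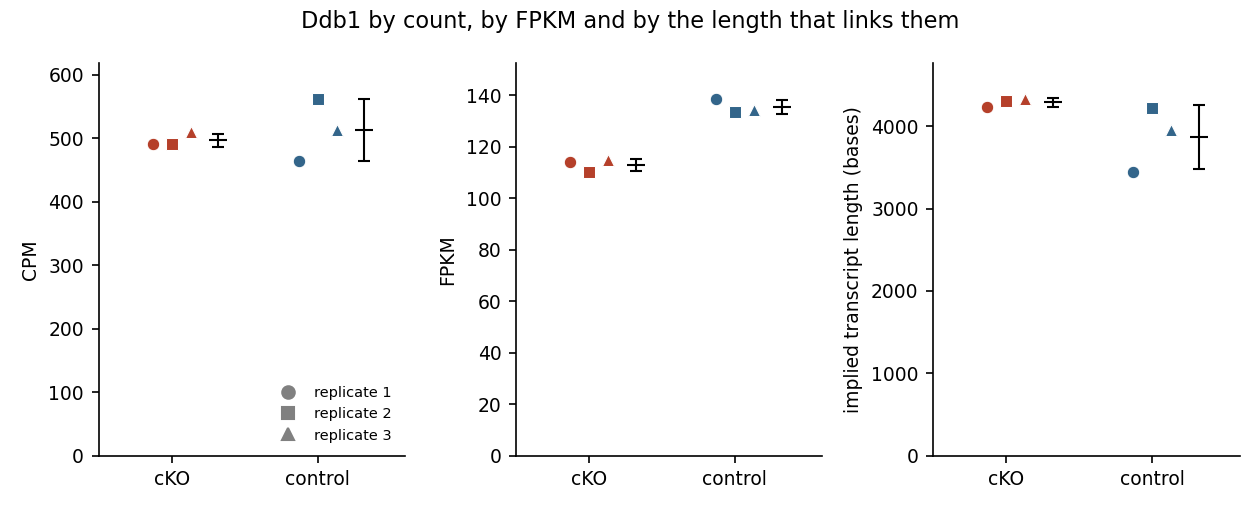
Ddb1 in each library by CPM, by the deposited FPKM and by the transcript length in bases implied by count, FPKM and library total. cKO is left of control, points are libraries and bars are the mean with 1 SD. The groups overlap by CPM and separate by FPKM, and control replicate 1 has the shortest implied length at 3445 bases.

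The genes whose pattern over the 6 libraries was most like that of Dtl were Zfp951, Stox1, Inpp5f and Mastl, by the mean absolute difference of log2 CPM after centring each gene on its own mean (0.10, 0.11, 0.11 and 0.12). Mastl, which encodes the mitotic kinase Greatwall, had 33.2, 32.3 and 37.5 CPM in cKO and 32.4, 42.0 and 44.9 CPM in controls. Those most like Pcna were Hmgb1, Ptges3, Hdgf and Cinp (0.030, 0.031, 0.033 and 0.034). Hmgb1, which encodes an abundant chromatin protein, had 585, 644 and 676 CPM in cKO and 818, 659 and 723 CPM in controls. All 6 libraries enter each measure, so the likeness is how these genes were chosen and not a separate result. The genes also share depth and scaling.

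The wider pathway was described with 9 lists holding 79 tested genes that are not members, of which 21 were lower and 5 higher in cKO (edgeR), with a median log2 fold change of -0.13. The shares over all tested genes were 13.9% lower and 11.1% higher, and the counts per list below are to be read against these; in a list of about 10 genes, 1 or 2 calls are near them. The count of called genes rested on the set of libraries: it was 8, 7 and 15 without cKO replicates 1, 2 and 3, and 41, 31 and 8 without control replicates 1, 2 and 3. With the replicate number as a block it was 17. With scaling to germ-cell transcripts, which raised the median of all genes to 1.52, 78 were higher and 0 lower, so each direction below is relative to the bulk of transcripts and not to germ cells.

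COP9 signalosome genes were lower in part: of 10 subunit genes, Cops5 included, 5 fell and 0 rose, with a median of -0.30 that turned to 1.19 with germ-cell scaling. Cops6 averaged 63.6 ± 4.31 CPM in cKO and 95.8 ± 10.7 CPM in controls (log2 fold change -0.59, edgeR adjusted p = 0.00634), and this call held in every alternative but germ-cell scaling. COPS6 is the partner of COPS5 in the catalytic core, and Cops5 itself was at -0.09. The paralogues Cops7a and Cops7b fell by 0.38 and 0.48 on the log2 scale, and Cops8 fell by 0.34 (edgeR adjusted p = 0.0221, 0.0152 and 0.0386). Cops3, named after its value was seen, fell by 0.27 (adjusted p = 0.0435). These 4 calls depended on single libraries: 2, 1 and 2 subunit genes passed without cKO replicates 1, 2 and 3, 6 without control replicate 2 and 1 without control replicate 3. Exons of Cops3 share 10.6% of their bases with other genes in GENCODE M21, and whether counting used strand is not given in the sources used here.

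Of 11 genes of the neddylation pathway, 2 fell, 2 rose and 7 did not pass, with a median of 0.03. Nae1, a subunit of the NEDD8-activating enzyme, averaged 70.8 ± 3.04 CPM in cKO and 94.0 ± 4.25 CPM in controls (log2 fold change -0.41, edgeR adjusted p = 0.0119). Among the DCUN1 genes, which help to attach NEDD8 to cullins, Dcun1d4 rose by 0.52 and Dcun1d1 by 0.33, while Dcun1d5 was at -0.34 (edgeR adjusted p = 0.0159, 0.0275 and 0.0347). All 4 calls were lost without cKO replicate 1 or 2. Among the other cullins, Cul9 was higher at 0.43 and Rnf7, which encodes the RING subunit paired with CUL5, was lower at -0.48 (edgeR adjusted p = 0.0248 and 0.0214), and 6 of 8 genes of that list did not pass. Both calls were lost without cKO replicate 1, cKO replicate 2 or control replicate 3, and that of Cul9 also with the length trend removed, at 0.14 (adjusted p = 0.341). Of 9 genes for ubiquitin-conjugating enzymes and the DDA1-DET1-COP1 group, 1 fell. This was Cdc34, an enzyme gene of cullin-RING ligases, with 24.0, 24.4 and 30.0 CPM in cKO and 53.9, 48.4 and 48.7 CPM in controls (log2 fold change -0.95, SE 0.11, edgeR adjusted p = 0.00121). All cKO libraries lay far below all controls, and the call held in every alternative but germ-cell scaling, where it was 0.53.

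Of 7 substrate genes, Kmt5a included, 1 fell and 1 rose (median 0.17). Cdt1, whose protein licenses replication origins, had 37.6, 33.3 and 44.5 CPM in cKO and 59.8, 48.4 and 55.9 CPM in controls (edgeR log2 fold change -0.51, adjusted p = 0.0215). This was lost without cKO replicate 1 or 2 or control replicate 3 (highest adjusted p = 0.103). Pold4, a small subunit of DNA polymerase delta, had 8.06, 7.93 and 9.76 CPM in cKO and 6.81, 4.52 and 4.93 CPM in controls (0.66, edgeR adjusted p = 0.0426). That call was lost in 8 alternatives, each left-out library except control replicate 1 among them, and 24.6% of its exon bases are shared with another gene in GENCODE M21. Cdkn1a, the p21 gene, had 8.91, 6.99 and 9.23 CPM in cKO and 6.28, 6.19 and 5.89 CPM in controls (0.45, edgeR adjusted p = 0.0821), and it passed with the length trend removed, at 0.51 (adjusted p = 0.0436). Tdg had 95.3, 89.2 and 92.3 CPM in cKO and 92.8, 95.7 and 86.9 CPM in controls (0.0078, edgeR adjusted p = 0.956), with groups that overlapped throughout.

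Around Pcna, which was at -0.26 and did not pass, genes that load the clamp were lower in part. Of 10 genes for loading and unloading, 4 fell, 0 rose and 6 did not pass (median -0.31, and 1.18 with germ-cell scaling). Chtf18, of the alternative clamp loader, had 31.5, 30.2 and 35.9 CPM in cKO and 64.2, 73.3 and 72.0 CPM in controls (log2 fold change -1.10, SE 0.11, edgeR adjusted p = 0.000426). Dscc1, of the same loader, was at -0.58, and the small clamp loader subunits Rfc4 and Rfc5 were at -0.86 and -0.55 (edgeR adjusted p = 0.0331, 0.00199 and 0.0108). The count was 7 without control replicate 1 and with the length trend removed, and 2 without cKO replicate 1, cKO replicate 2 or control replicate 3. The calls of Chtf18 and Rfc4 held in every alternative but germ-cell scaling. Exons of Rfc4 and Rfc5 share 12.65% and 10.7% of their bases with other genes in GENCODE M21. Of 10 genes for ubiquitin on PCNA, 2 fell: Rad18, the ligase gene, at -0.59, and Ube2n at -0.33 (edgeR adjusted p = 0.0159 and 0.029), and 0 passed without any 1 cKO replicate or without control replicate 3.

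Of 10 genes for proteins that bind PCNA, 4 fell and 1 rose (median -0.29, and 1.22 with germ-cell scaling). Rnaseh2b, of an enzyme that removes ribonucleotides from DNA, was at -0.64 and the ligase gene Lig1 at -0.43 (edgeR adjusted p = 0.00759 and 0.0136). Ung, a uracil DNA glycosylase gene, was also at -0.43 (adjusted p = 0.0155). Fen1, the flap endonuclease gene, was at -0.59 (adjusted p = 0.006), but 84.2% of its exon bases are shared with other genes in GENCODE M21 and the use of strand in counting is not stated. Polh, a translesion polymerase gene named after its value was seen, was higher at 0.43 (edgeR adjusted p = 0.0216), a call lost without any 1 cKO replicate or control replicate 3, with the replicate number as a block and by FPKM. The number that fell was 7 without control replicate 1 and with the length trend removed, and 2 without cKO replicate 1, cKO replicate 2 or control replicate 3. Of 7 tested genes of histone H4 lysine 20 methylation and its readers, Kmt5a included, 1 fell (median 0.13). This was Orc1, the origin recognition subunit that binds the dimethylated form, with 15.3, 17.5 and 19.4 CPM in cKO and 28.8, 41.1 and 46.2 CPM in controls (log2 fold change -1.15, edgeR adjusted p = 0.00332), and 10.8% of its exon bases are shared with another gene. Of 9 genes of dividing cells 4 were lower and 0 higher, with a median log2 fold change of -0.25 (6 negative and 3 positive). Mki67 and Top2a, which mark cycling cells, are in this list but not among the 4 that fell. They were at 0.18 and -0.12 (edgeR adjusted p = 0.524 and 0.613). Mki67 passed without control replicate 2, at 0.42 (adjusted p = 0.0389), and Top2a with the length trend removed, at -0.29 (adjusted p = 0.0485).

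**Figure D5:**
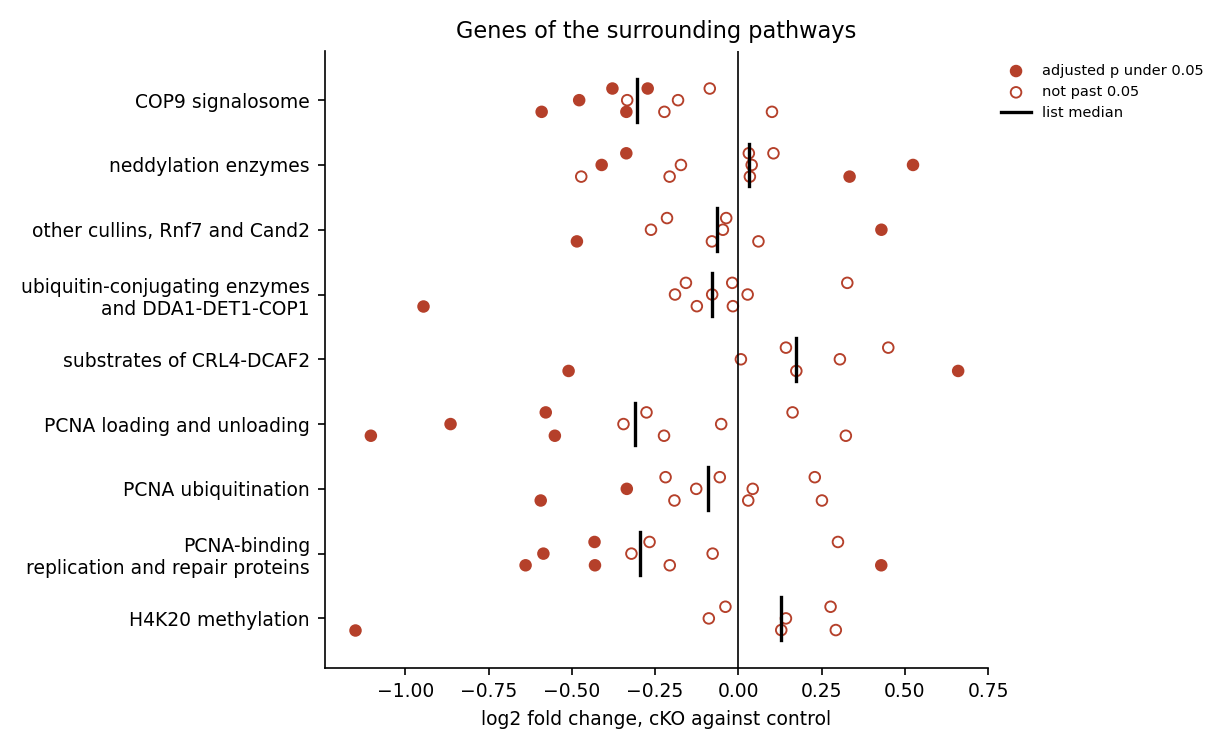
Log2 fold change, cKO against control, of each tested gene in 9 pathway lists, with Cops5 and Kmt5a shown in the lists that hold them; filled circles passed an edgeR adjusted p of 0.05, open circles did not, and the black bar is the list median. Filled circles left of 0 are most frequent among COP9 signalosome, clamp loading and PCNA-binding genes, and these directions turned with scaling to germ-cell transcripts.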

How the data were processed

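Messenger RNA of whole mouse testes was sequenced, per the labels' protocols, from 3 cKO and 3 control libraries. The authors deposited estimated counts, already rounded to whole numbers, and FPKM values for 22274 Ensembl gene IDs. The counts were taken as estimated because each library lists a count of 0 at some genes (3 to 21) whose FPKM is above 0. Per the submitters' processing notes, StringTie 1.3.1 and RSEM were used, in roles not stated. No aligner, build, annotation or strand setting is named: not given in the sources used here. Symbols came from the gene name table (22219 IDs matched). Where 2 IDs share a symbol, the one with more counts was used.

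Genes were filtered with filterByExpr (minimum count 10) and scaled by TMM, a trimmed mean of ratios between libraries. Genotype was tested with edgeR 4.0.16 (quasi-likelihood, R 4.3.3), adjusted over 14424 genes by Benjamini-Hochberg. The SE is the log2 fold change divided by the square root of F. The alternatives were DESeq2 1.42.0, limma-voom (limma 3.58.1), other scalings (RLE, upper quartile, total count, and the summed germ-cell marker genes), no or a stricter filter, the replicate number as a block, removal of a length trend, and each library left out. The length trend was fitted within each library, as log2 CPM less the gene's mean over all libraries, against implied transcript length. FPKM values were used for levels between genes and for 1 alternative, with a pseudocount of 1. The procedure was also run on simulated counts. Those had the same relative spread for every gene and in both groups, unlike these libraries, so they do not check the calls made here.

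The 9 genes and all lists were chosen with earlier results of these data known. Named pathway genes are, per list, up to 4 past the threshold with the smallest p, plus Cdkn1a, Tdg and Cdt1, the marker genes Ddx4, Kit, Sox9, Mki67 and Top2a, and the 4 genes most like Dtl and Pcna whose log2 CPM averages 1 or more. Others are said to be named after their values were seen.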

Additional observations from a re-analysis of the deposited data

How the results depend on the processing

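Scaling by the germ-cell genes, all 20 of which were lower in cKO, raised every member along with the median of all genes, to 1.52. With it Dtl, Ddb1, Cul4b, Rbx1, Cops5 and Pcna turned to 1.21, 1.47, 1.41, 1.27, 1.39 and 1.22 on the log2 scale, Cul4a, Cand1 and Kmt5a passed at 1.59, 1.54 and 1.63, and 9 members, 13518 of all genes and 78 pathway genes were called; 3 of the 9 members lay above the median of all genes, as in the main analysis. Named genes turned as well: Cdt1 0.96, Cops3 1.23, Cops6 0.89, Cops7a 1.11, Cops7b 1.01, Cops8 1.15, Nae1 1.08, Dcun1d5 1.15, Rnf7 0.99, Cdc34 0.53, Chtf18 0.40, Rfc4 0.62, Rfc5 0.94, Dscc1 0.91, Rad18 0.93, Ube2n 1.15, Fen1 0.90, Rnaseh2b 0.84, Lig1 1.06, Ung 1.05, Orc1 0.37, Ddx4 0.20, Kit 0.16 and Top2a 1.40. Ddx4 is itself among the genes that set this scaling, so its move toward 0 is built in. Elsewhere, values near 0 in the main analysis changed sign, and not all of them stayed near 0. Cul4a was -0.0011 with the length trend removed and -0.0036 by FPKM. Cand1 was -0.031 with total-count scaling, -0.26 with the length trend removed and -0.026 by FPKM. Cops5 was 0.028 and Mki67 -0.15 with the length trend removed. Tdg was -0.0092 with DESeq2, -0.0090 with RLE, -0.019 with upper-quartile and -0.058 with total-count scaling, -0.0011 without a filter and -0.029 by FPKM. By FPKM, chosen after seeing the data, Ddb1 passed at -0.26 and 1 member was called. The cause of these changes was not tested.

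With any 1 library left out, the log2 fold changes ran from -0.51 to -0.024 for Dtl, -0.14 to 0.013 for Ddb1, -0.029 to 0.12 for Cul4a, -0.26 to 0.017 for Cul4b, -0.33 to -0.11 for Rbx1, -0.037 to 0.11 for Cand1, -0.15 to -0.00018 for Cops5, -0.34 to -0.18 for Pcna and 0.072 to 0.20 for Kmt5a, lowest in size without control replicate 1 for Cops5 and without control replicate 3 for Kmt5a. The log2 ratio of Dtl to Pcna ran from -0.26 to 0.23, that of Cul4b to Cul4a from -0.22 to -0.084, Tdg from -0.030 to 0.033 and Top2a from -0.26 to 0.049. Between 0 and 2 members, 1355 and 5255 of all genes and 7 and 41 pathway genes were then called, and 2 members were called without control replicate 1 (Dtl, Cul4b) or 2 (Rbx1, Pcna). Libraries with the same number did not deviate together (correlations of -0.10, -0.12 and 0.06), so the replicate block is a check only; it called 0 members and 17 pathway genes, against 26 without it.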
